A study of Mus musculus with 6 samples.

Results

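The genes described here are the potassium channel genes of the mouse, taken as every gene whose symbol starts with Kcn. Gene identifiers of the deposited table were matched to symbols, and 94 of its 22095 genes met this rule. All of these are protein-coding, and they cover pore-forming subunits, silent subunits that modify them, and auxiliary subunits. The study sequenced polyadenylated RNA from the olfactory bulbs of 3 ICR mice, an outbred strain, numbered 1037, 1038 and 1039. In each mouse a silica gel plug was placed in the left naris under anaesthesia on postnatal day 30, and both bulbs were taken after a further 60 days, following perfusion with phosphate-buffered saline. Left bulbs thus lie on the plugged side and right bulbs, taken from the same animals, on the open side. All 3 mice were operated, no genetic alteration is named, and no mouse without a plug was sampled, so a difference between the sides that exists without a plug cannot be told apart from one that follows it.

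Potassium channels let potassium ions leave the cell and so set the resting potential, end the action potential and limit how fast a neuron fires. Voltage-gated members open on depolarisation, calcium- and sodium-activated members open when those ions enter, inward rectifiers and 2-pore-domain channels hold the membrane near rest, and in astrocytes inward rectifiers also clear potassium from around active neurons. Mitral, tufted, granule and periglomerular neurons of the bulb fire in patterns that depend on several of these currents.

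What unites the pore-forming members is the selectivity filter, a run of 5 amino acids that lines the narrow part of the pore. The coding sequences of members the results turn on are shown to make clear how the role groups differ at this site. They were read 5′ to 3′ from the GENCODE M21 transcripts on GRCm38, with the 5 codons of the filter in capitals.
Kcna4: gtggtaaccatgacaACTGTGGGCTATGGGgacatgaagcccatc
Kcnc2: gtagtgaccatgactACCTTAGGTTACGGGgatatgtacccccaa
Kcng1: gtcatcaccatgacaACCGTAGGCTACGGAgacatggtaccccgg
Kcnma1: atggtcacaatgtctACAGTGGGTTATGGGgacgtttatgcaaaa
Kcnh7: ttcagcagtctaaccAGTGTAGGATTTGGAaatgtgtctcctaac
Kcnh6: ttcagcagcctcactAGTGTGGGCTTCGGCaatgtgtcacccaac
Kcnj16: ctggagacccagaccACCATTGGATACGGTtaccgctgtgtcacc
Kcnk2, first pore domain: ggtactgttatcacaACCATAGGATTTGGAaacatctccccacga
Kcnk2, second pore domain: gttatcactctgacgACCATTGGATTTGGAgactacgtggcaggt
The next-to-last of the 5 codons reads tyrosine in Kcnma1 and in the voltage-gated, modifier and inward rectifier members printed, and phenylalanine in Kcnh6, Kcnh7 and both filters of Kcnk2. A filter of this form was found in 75 members, among them all 17 voltage-gated pore members and all 8 Kcnh members. Those 17 carry tyrosine and those 8 carry phenylalanine at this codon. The modifier Kcng1, which forms no channel alone, has the tyrosine codon too, as do all 9 modifier members in which the filter was found. These counts do not cover Kcng2 and Kcnn2, so they do not show whether either gene has the filter.

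The 6 libraries held 14571453 to 15590938 counts. Levels are given as CPM, the count scaled by the total count of the library, and a count of 0 allows a level of up to 0.192 to 0.206 CPM (3 counts), which covers counting error only. The library labelled left 1038 went against its label. The summed level of 5 interneuron markers (Dlx1, Dlx2, Dlx5, Dlx6 and Sp8) was 1.03 CPM in it and 541 to 615 CPM in the other 5, and that of 5 cerebellar granule cell markers (Cbln3, Gabra6, Fat2, Neurod1 and Barhl1) was 3695 CPM against 12.1 to 40.2 CPM. It was left out of the comparison of the sides and is described apart. The comparison therefore sets 2 left bulbs, of mice 1037 and 1039, against 3 right bulbs. Within these 5 libraries the sensory neuron markers Omp, S100a5, Gng13 and Stoml3 fell on the left, and the summed level of their list of 5, with Gnal, was 93.1 and 150 CPM on the left and 330 to 412 CPM on the right. The granule cell list summed to 38.8 and 40.2 CPM on the left and 12.1 to 16.04 CPM on the right; most of this was Neurod1, which rose by 1.48 on the log2 scale (adjusted p = 0.000224), while Cbln3, Gabra6, Fat2 and Barhl1 each stayed at or under 1.26 CPM in all 5. The part of these lists in the results on channel genes was not tested. In whole bulbs fewer cells of a type and less RNA per cell cannot be told apart.

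On the open side the highest levels per length were those of Kcnab3, a cytoplasmic auxiliary subunit, and Kcnj10, the main inward rectifier of astrocytes. To compare levels between genes, the CPM was divided by the union of the gene's exons in kilobases. Kcnab3 stood at 78.6 ± 2.04 CPM per kilobase (SD, n = 3) and Kcnj10 at 78.2 ± 4.98 (SD, n = 3), a difference smaller than their spread. Kcnj4, a strong inward rectifier of neurons, followed at 59.3 ± 2.52 CPM per kilobase. Next came Kcnip2, an auxiliary subunit of Kcnd channels, at 47.5 ± 1.06 and the silent subunit Kcnf1 at 46.0 ± 3.02 CPM per kilobase, again within their spread.

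Among voltage-gated pores Kcnd2, an A-type channel of dendrites, was highest, at 38.0 ± 1.96 CPM per kilobase. Among Kcnh members it was Kcnh3, at 26.1 ± 0.511 CPM per kilobase. Kcnk1 stood at 25.96 ± 0.701 among 2-pore-domain channels. Kcnt1, a sodium-activated channel, stood at 19.4 ± 1.52 among ion-activated channels. Kcnrg, which encodes a soluble regulator and no pore, stood at 0.293 ± 0.211 CPM per kilobase (all SD, n = 3). At the other end, Kcnk16, Kcnk18 and Kcne1 had a count of 0 in all 6 libraries. These and 13 further members had too few counts to be tested, and none of the 16 exceeded 1.02 CPM in any of the 5 libraries.

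**Figure D1:**
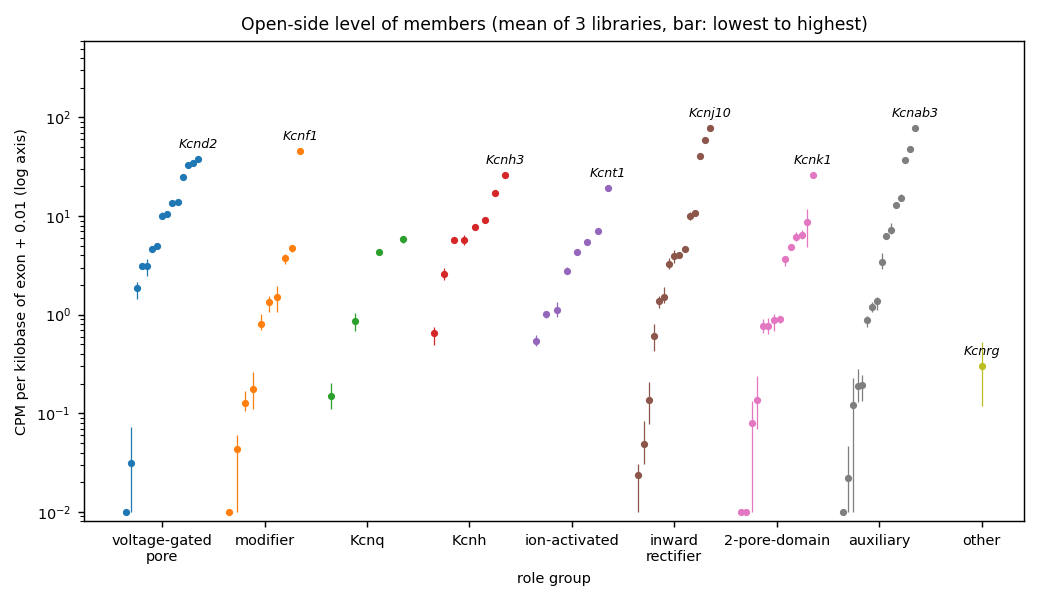
Level of the members reported here on the open side, grouped by role; the y axis is CPM per kilobase of exon plus 0.01 on a log axis, points are means of the 3 right libraries and bars run from the lowest to the highest library. Kcnab3 and Kcnj10 reach 78.6 and 78.2 CPM per kilobase, and members at the bottom have no reads.

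Across the plugged and open sides, 27 of the 78 members tested differed by edgeR's quasi-likelihood test (adjusted p under 0.05 over all genes). Of these 21 were lower and 6 higher on the left. The falls took in channels of the Kcna, Kcnb and Kcnc families, Kcnma1, 4 inward rectifiers and the auxiliary subunits Kcnab2 and Kcnab3. The rises were those of Kcna6, Kcng1, Kcns1, Kcnh6, Kcnk2 and Kcnip2. Over all 14412 genes tested 9.62% were called, 6.46% lower and 3.16% higher, against 34.6% of the members tested. The median log2 fold change (left over right) was -0.11 over the members and 0.005 over all genes. The median level on the right was 23.0 CPM over the members tested and 28.4 CPM over all genes tested.

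Most changes were small, and 4 of the 27 exceeded 2-fold. In each of the 27 the left and right libraries did not overlap in CPM. The 27 were picked by a test on these same libraries, so this is no separate support for them. The sides did not overlap for 46.4% of all genes tested, with the left below the right in 13.2% and above it in 33.2%. Among the 78 members, called or not, they did not overlap in 44, with the left below in 26 and above in 18. Of the 78, 74 had at least 2 libraries over the filter on low counts in each group. Kcns1 passed the filter only through the left group, so its difference follows in part from that choice. Scaled by total library size alone, the split was 16 lower and 8 higher for the members, and 589 lower and 975 higher for all genes.

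**Figure D2:**
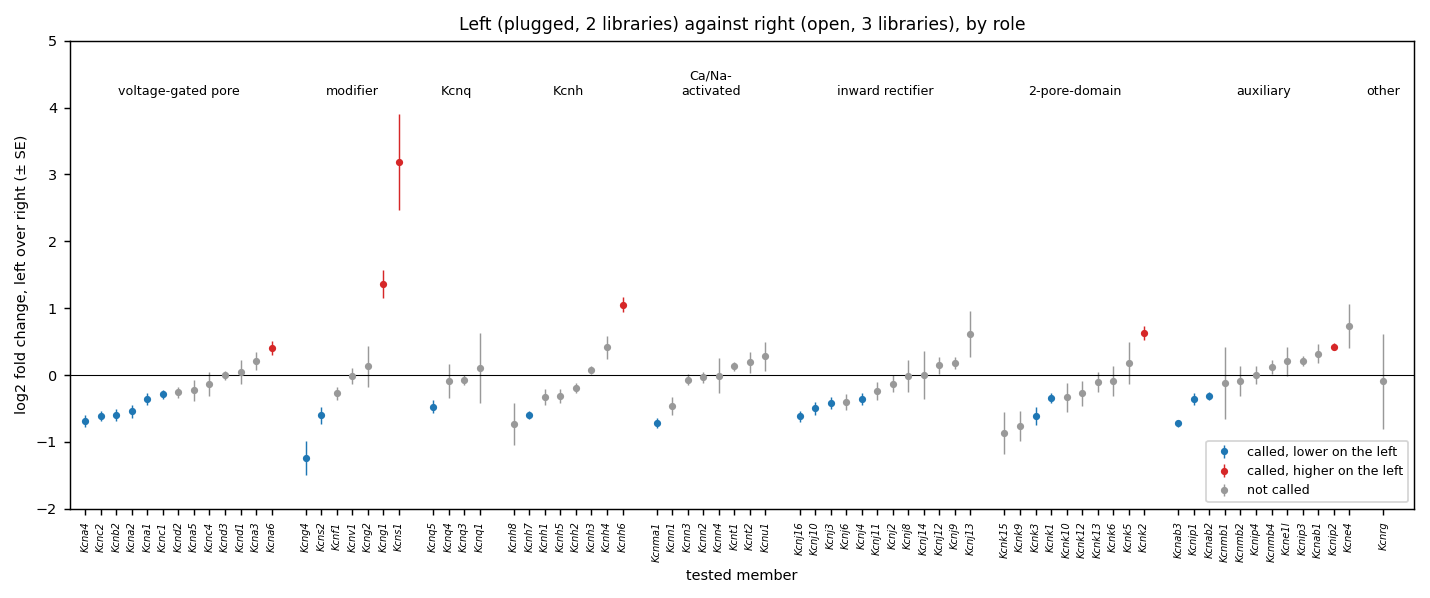
Log2 fold change, left over right, of the tested members reported here, by role group; bars are 1 SE from edgeR, blue marks members called lower, red the 6 called higher and grey those not called. Falls lie mostly among voltage-gated pores, inward rectifiers and auxiliary subunits, and the largest rises are those of Kcns1, Kcng1 and Kcnh6. That of Kcns1 rests on few reads, and this gene passed the filter only through the left group.

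The counts of called members and of all called genes both changed with the libraries used. Of the members 17 were called without right 1037 and 16 without right 1038, against 21 without left 1037, 25 without left 1039 and 23 without right 1039. Over all genes the same fits called 670 and 660, against 1067, 885 and 1124. With 1 left library out, the lone left bulb is assumed to vary as the right ones do. In each of these 5 fits 14 of the 27 stayed called, among them Kcna2, Kcna4, Kcnb2, Kcnc2, Kcng1, Kcnh6, Kcnh7, Kcnma1, Kcnj16, Kcnk2, Kcnab2, Kcnab3 and Kcnip2. Fitting the mouse as a block gave 31 called members in edgeR and 14 in DESeq2, and 1553 and 432 called genes in all. Mouse 1038 has only its right bulb in these 5 libraries, so its block term takes up that library. The side difference in the block fits, here and for the genes below, thus rests on the 2 mice with both bulbs, 1037 and 1039. With all 6 libraries edgeR called 0 members and 0% of all genes. At an unadjusted p under 0.05 these were 9 of 76 members and 1196 of 14209 genes.

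Some voltage-gated pore subunits were lower on the left: 3 of 6 tested members of the Kcna family, 1 of 2 of the Kcnb family and 3 of 4 of the Kcnc family fell, and 0 of 3 of the Kcnd family were called. Of 17 such genes 15 were tested, of which 7 fell and 1 rose, with a median log2 fold change of -0.29. Kcna4, a fast-inactivating A-type channel, stood at 39.5 and 47.2 CPM in left 1037 and 1039 and at 66.7, 68.8 and 63.1 CPM in right 1037, 1038 and 1039. Both left bulbs lay below every right bulb, and the gene fell by 0.69 on the log2 scale (SE 0.09, adjusted p = 0.00220). Kcnc2, of the Kcnc family that repolarises fast-spiking neurons, stood at 68.0 and 68.2 CPM on the left and 103, 101 and 92.0 CPM on the right. It fell by 0.61 (SE 0.07, adjusted p = 0.00131), and the left bulbs were nearly equal. Kcnb2, a delayed rectifier, stood at 100 and 124 CPM on the left and 164, 167 and 149 CPM on the right, and fell by 0.59 (SE 0.09, adjusted p = 0.00441). Here left 1039 lay closer to the right bulbs than left 1037 did. DESeq2 with the mouse as a block did not call Kcnb2 (adjusted p = 0.162), while edgeR with the block did.

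Kcna2, a delayed rectifier of axons, stood at 317 and 250 CPM on the left and 395, 414 and 365 CPM on the right, and fell by 0.55 (SE 0.10, adjusted p = 0.00885). The lower of its left bulbs was that of mouse 1039. Kcnc1 and Kcna1 fell by 0.29 and 0.36 (adjusted p = 0.0250 and 0.0407). The call of Kcnc1 was lost on leaving out right 1037, right 1038, right 1039 or left 1039 (largest adjusted p = 0.140), and that of Kcna1 without left 1037, left 1039, right 1037 or right 1038 (largest adjusted p = 0.151). DESeq2 with the block called neither (adjusted p = 0.119 and 0.458), nor did edgeR when scaled by total library size alone (adjusted p = 0.0722 and 0.0827).

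Kcna6 rose, alone among the voltage-gated pores. It stood at 34.2 and 41.8 CPM on the left and 26.4, 25.9 and 29.3 CPM on the right, a log2 fold change of 0.40 (SE 0.11, adjusted p = 0.0437). Without left 1039 the value was 0.26 and the call ended, as it did without right 1037, right 1038 or right 1039 (largest adjusted p = 0.244) and with DESeq2 and the block (adjusted p = 0.551). Kcnd2 had -0.26 (SE 0.08, adjusted p = 0.0760) and was called by DESeq2 (adjusted p = 0.0440) and without left 1039 (-0.37, adjusted p = 0.0252). Kcnd3 had -0.002 (SE 0.07, adjusted p = 0.989) and Kcnd1 0.05 (SE 0.18, adjusted p = 0.895).

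The modifier subunits, which join Kcnb channels and change their gating, moved in both directions. Of 7 tested 2 rose and 2 fell. Kcng1 stood at 16.5 and 19.98 CPM on the left and 6.80, 4.70 and 8.67 CPM on the right, with every left value above every right value. Its log2 fold change was 1.36 (SE 0.21, adjusted p = 0.00472), and it was 1.16 to 1.58 with 1 library left out. Kcng4 went the other way, with 2.46 and 2.06 CPM on the left and 4.04, 5.90 and 5.26 CPM on the right, and fell by 1.24 (SE 0.26, adjusted p = 0.0156). Its call was lost on leaving out right 1038 or left 1039 (largest adjusted p = 0.0717).

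Kcns1 had 13 and 15 reads in left 1037 and 1039 and 0, 2 and 2 reads in right 1037, 1038 and 1039. Its log2 fold change of 3.18 (SE 0.72, adjusted p = 0.0237) rests on these few reads, and the call was lost on leaving out left 1037, left 1039 or right 1037 (largest adjusted p = 0.106). Kcns2 stood at 14.9 and 14.5 CPM on the left and 22.0, 22.9 and 18.3 CPM on the right and fell by 0.60 (SE 0.13, adjusted p = 0.0176). That call was lost on leaving out left 1037, left 1039, right 1037 or right 1038 (largest adjusted p = 0.0765) and with DESeq2 and the block (adjusted p = 0.407). Kcnf1, the modifier with the highest level, had -0.27 (SE 0.10, adjusted p = 0.112), and left 1039 lay among the right bulbs. Without left 1039 its value was -0.44 and it was called (adjusted p = 0.0154).

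Of the Kcnq genes, which carry the M current that damps repeated firing, 1 of 5 was called. Kcnq5 stood at 31.9 and 36.4 CPM on the left and 45.8, 47.8 and 40.6 CPM on the right, and fell by 0.47 (SE 0.10, adjusted p = 0.0181). The call was lost on leaving out left 1037, right 1037 or right 1038 (largest adjusted p = 0.0883) and with DESeq2 and the block (adjusted p = 0.322). Kcnq3 had -0.07 (SE 0.07, adjusted p = 0.601).

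Among the Kcnh genes the 2 called members, both of the erg type, moved in opposite directions. Kcnh6 stood at 46.7 and 41.4 CPM on the left and 17.9, 19.5 and 22.9 CPM on the right. Its log2 fold change was 1.05 (SE 0.11, adjusted p = 0.000992), with 1.29 in mouse 1037 and 0.77 in mouse 1039, and the left values lay far above the right ones. Kcnh7 stood at 79.2 and 85.9 CPM on the left and 117, 116 and 120 CPM on the right, and fell by 0.59 (SE 0.06, adjusted p = 0.000919). Both calls held with each library left out in turn. The exons of Kcnh7 overlap those of Gca on the opposite strand, and Gca stood at 16.8 to 23.4 CPM in the 5 libraries, with a log2 fold change of -0.27 (adjusted p = 0.236). The other 6 were not called. Kcnh5, Kcnh1 and Kcnh2 had -0.32, -0.33 and -0.19 (adjusted p = 0.0936, 0.124 and 0.125), and Kcnh5 and Kcnh1 were called without left 1039 (-0.48 and -0.57, adjusted p = 0.0306 and 0.0132). Kcnh3 had 0.08 (SE 0.05, adjusted p = 0.430), and its exons overlap those of Mcrs1.

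Kcnma1, the pore of the large-conductance calcium-activated channel, was lower on the left, and it was the single called member of 8 ion-activated genes. It stood at 62.7 and 56.9 CPM on the left and 98.3, 91.6 and 87.9 CPM on the right, and fell by 0.71 (SE 0.08, adjusted p = 0.00108). The value was -0.74 in mouse 1037 and -0.70 in mouse 1039. Its auxiliary subunits Kcnmb1, Kcnmb2 and Kcnmb4 had -0.11, -0.09 and 0.12 and were not called. Among the small-conductance calcium-activated channels Kcnn1 had -0.47 (SE 0.14, adjusted p = 0.0647), and Kcnn2 and Kcnn3 had -0.03 and -0.07. Kcnt1 had 0.13 (SE 0.07, adjusted p = 0.289).

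Of 12 inward rectifiers tested 4 fell and 0 rose. Kcnj16, whose product forms channels together with that of Kcnj10, stood at 29.3 and 29.4 CPM on the left and 43.6, 42.3 and 41.9 CPM on the right. It fell by 0.62 (SE 0.08, adjusted p = 0.00212), and the values within each side were close. Kcnj10 stood at 352 and 283 CPM on the left and 428, 447 and 394 CPM on the right and fell by 0.50 (SE 0.09, adjusted p = 0.0111); without right 1037 the adjusted p was 0.0525. Astrocyte markers moved the other way or were not called. Gfap and Aqp4 rose by 1.05 and 0.30 (adjusted p = 0.000606 and 0.0101), while Aldh1l1, Slc1a2 and Gja1 had -0.23, -0.09 and 0.14 and were not called. The summed level of these 5 markers was 2083 and 2129 CPM on the left and 1620 to 1766 CPM on the right. Of these sums Gfap alone held 543 and 578 CPM on the left and 221, 248 and 297 CPM on the right. The part of these markers in the values of Kcnj10 and Kcnj16 was not tested.

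Kcnj3, a subunit of the channels opened by G proteins, stood at 149 and 187 CPM on the left and 203, 219 and 216 CPM on the right and fell by 0.42 (SE 0.09, adjusted p = 0.0171). Without left 1037 the value was -0.26 and the call ended, as it did without right 1038 (largest adjusted p = 0.0582). Its partner Kcnj6 had -0.40 (SE 0.12, adjusted p = 0.0724), and edgeR with the block called it (adjusted p = 0.0183), while Kcnj9, of the same class, had 0.18 (SE 0.09, adjusted p = 0.250). Kcnj4 fell by 0.36 (SE 0.09, adjusted p = 0.0372), with 93.7 and 117 CPM on the left and 127, 133 and 122 CPM on the right. Without left 1037 its value was -0.20, and its call ended there and without right 1037, right 1038 or right 1039 (largest adjusted p = 0.189), with DESeq2 and the block (adjusted p = 0.229) and with scaling by total library size alone (adjusted p = 0.0831). Kcnj8, known from pericytes, had -0.02 (SE 0.24, adjusted p = 0.977).

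The 2-pore-domain channels, which carry the leak current, included 1 that rose and 2 that fell among 10 tested. Kcnk2, a leak channel opened by membrane stretch, stood at 54.0 and 50.2 CPM on the left and 28.9, 36.0 and 30.8 CPM on the right. Its log2 fold change was 0.63 (SE 0.10, adjusted p = 0.00532), and no left bulb came near a right one. Kcnk3, an acid-sensitive leak channel, stood at 18.7 and 15.2 CPM on the left and 23.9, 27.5 and 22.0 CPM on the right, and fell by 0.61 (SE 0.13, adjusted p = 0.0214). Kcnk1 stood at 50.7 and 46.4 CPM on the left and 59.6, 58.0 and 56.5 CPM on the right, and fell by 0.34 (SE 0.08, adjusted p = 0.0237). Both calls were lost on leaving out right 1037, right 1038 or left 1039 (largest adjusted p = 0.119 for Kcnk3 and 0.140 for Kcnk1) and with DESeq2 and the block (adjusted p = 0.348 and 0.384), and that of Kcnk1 also when scaled by total library size alone (adjusted p = 0.0564). Kcnk9, the close relative of Kcnk3, had -0.76 (SE 0.23, adjusted p = 0.0696) and Kcnk15 -0.87 (SE 0.31, adjusted p = 0.117). Both were called by edgeR with the block (-0.79 and -0.58, adjusted p = 0.0121 and 0.0269), Kcnk9 also by DESeq2 (adjusted p = 0.0452) and without left 1037 (-1.10, adjusted p = 0.0300), and Kcnk15 without right 1037 (-1.15, adjusted p = 0.0173).

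Of the auxiliary subunits 3 fell and 1 rose among 12 tested. Kcnab3, a cytoplasmic beta subunit of Kcna channels, had the smallest p of all members. It stood at 143 and 146 CPM on the left and 223, 221 and 232 CPM on the right, and fell by 0.72 (SE 0.06, adjusted p = 0.000224), with -0.73 in mouse 1037 and -0.74 in mouse 1039. Kcnab2, of the same family, fell by 0.32 (SE 0.06, adjusted p = 0.00952), from 196, 214 and 210 CPM on the right to 174 and 177 CPM on the left; DESeq2 with the block did not call it (adjusted p = 0.120). Kcnab1 had 0.32 (SE 0.14, adjusted p = 0.196), with the left values above the right ones.

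The calcium-binding Kcnip subunits, which bind Kcnd channels, were split. Kcnip2 stood at 227 and 241 CPM on the left and 162, 169 and 164 CPM on the right, and rose by 0.42 (SE 0.06, adjusted p = 0.00230), with the sides far apart for their spread. Kcnip1 stood at 59.2 and 73.0 CPM on the left and 76.5, 84.1 and 78.8 CPM on the right, and fell by 0.35 (SE 0.09, adjusted p = 0.0382). Without left 1037 that value was -0.21, and the call ended there and without right 1037, right 1038 or right 1039 (largest adjusted p = 0.210), with DESeq2 and the block (adjusted p = 0.365) and with scaling by total library size alone (adjusted p = 0.0877). Kcnip3, also known as a repressor of transcription, had 0.21 (SE 0.08, adjusted p = 0.136), and 0.29 when scaled by total library size alone, where it was called (adjusted p = 0.0491). Kcne4 had 0.73 (SE 0.33, adjusted p = 0.207) and was called without left 1039 (1.19, adjusted p = 0.0450). Kcne2, too low to be tested in the 5 libraries, had 0.972 CPM in left 1037 and at most 0.133 CPM in the others. Without left 1039 it passed the filter, with a log2 fold change of 4.95 that rests on 15 reads in left 1037.

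**Figure D3:**
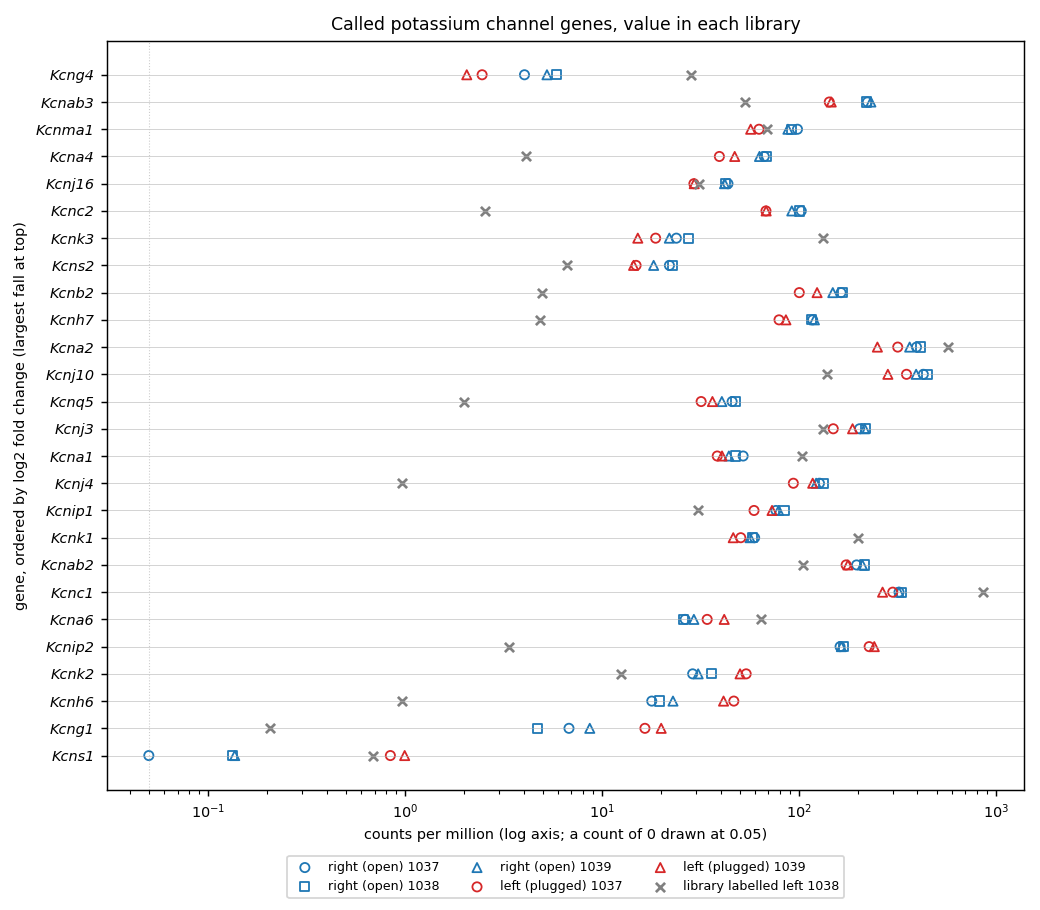
CPM of the called members reported here in each library on a log axis, ordered by log2 fold change; blue symbols are the 3 right bulbs, red symbols the 2 left bulbs used in the comparison, and grey crosses the library labelled left 1038, with a count of 0 drawn at 0.05. Red lies right of blue in the 6 genes at the bottom and left of blue in all above, and the crosses lie outside the range of the other libraries for most genes.

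Of 25 genes for proteins that join, anchor or resemble these channels without a Kcn symbol, 23 were tested. Of these 3 fell and 0 rose, which is 13.0% called against 9.62% of all genes tested, a share near the background. Their median log2 fold change was -0.09. Hcn2, a channel opened by hyperpolarisation, stood at 69.9 and 65.8 CPM on the left and 88.1, 89.5 and 85.0 CPM on the right and fell by 0.45 (SE 0.06, adjusted p = 0.00338). Ank3, which anchors Kcnq channels at the axon initial segment, fell by 0.32 (SE 0.06, adjusted p = 0.0146), a call that was lost on leaving out right 1037 (adjusted p = 0.0678). Calm3, a calmodulin gene, fell by 0.25 (SE 0.06, adjusted p = 0.0379), and that call was lost on leaving out left 1037, right 1037, right 1038 or right 1039 (largest adjusted p = 0.146). Dpp6 and Dpp10, partners of Kcnd channels, had -0.02 and -0.24 (adjusted p = 0.876 and 0.132), and Amigo1, a partner of Kcnb channels, had -0.19 (adjusted p = 0.116).

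In the library labelled left 1038 the channel genes had other levels than in the 5 bulb libraries. With 1 library there is no replicate check. Of the 78 tested members 47 lay below all of the other 5, 25 above and 6 within their range. The same was not counted over all genes, so these counts do not set the members apart from other genes. Of 63 members with at least 5 CPM in it or in the median of the others, 22 lay over 4-fold below that median and 9 over 4-fold above, where 6.84% and 3.32% of all such genes did. Kcnf1 stood at 0.892 CPM in this library, with a median of 216 CPM in the others. Kcnh3, Kcnj4 and Kcnip2 stood at 1.17, 0.961 and 3.36 CPM, with medians of 153, 122 and 169 CPM. Kcnh5 and Kcnv1 stood at 0.480 and 0.275 CPM, with medians of 36.2 and 22.4 CPM. These were the members furthest below the others.

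Furthest above were Kcnab1, 9.92 times the median of the others, and Kcng4, 6.98 times. Kcnc4, Kcnj12, Kcnk3 and Kcnk10 followed at 6.64, 6.35, 6.05 and 5.70 times. Kcnc1 stood at 857 CPM in this library, against 266 to 332 CPM in the other 5. Kcnt1 stood at 899 CPM against 169 to 213 CPM. Cerebellar granule and Purkinje cell markers were high in the same library: the 4 Purkinje markers Pcp2, Calb1, Car8 and Pvalb summed to 2405 CPM there and to 27.5 to 30.5 CPM in the others. With this library counted as a left bulb the fitted sign of Kcnk1, Kcnk3, Kcnip2, Kcng4, Kcna1 and Kcnc1 turned.

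**Figure D4:**
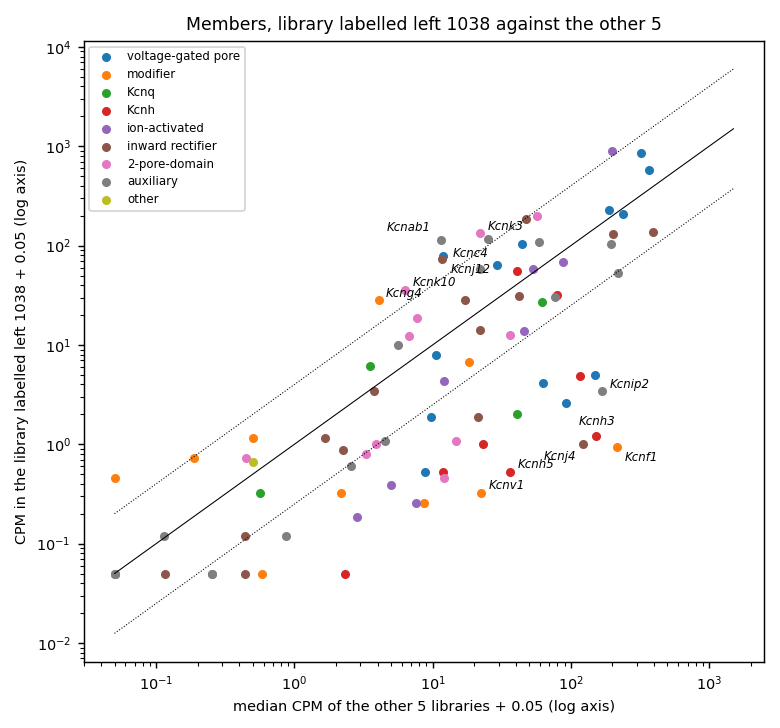
CPM of the members reported here in the library labelled left 1038 against the median CPM of the other 5 libraries, both plus 0.05 on log axes and coloured by role; the solid line marks equal levels and the dotted lines 4-fold. The 6 members furthest in each direction are named, with Kcnf1 lowest and Kcnab1 highest relative to the others.

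Promoters of the members were searched for 4 short motifs. RefSeq promoter windows on GRCm38.p6, from 250 bases before to 50 after a start, matched 69 of the 94 members with 94 windows, and both strands were read. The cAMP response element TGACGTCA and the Egr motif GCGTGGGCG were found in 0 of the 94, and in 1.79% and 0.612% of all 32851 windows (2.86% and 1.15% of those of tested genes). The AP-1 motif TGAGTCA or TGACTCA, which are each other's reverse complement, was found in 2 of them (2.13%), in 5.20% of all windows and in 3.74% of those of tested genes. TATAAA was found in 5 (5.32%), in 13.6% of all windows and in 7.48% of those of tested genes. No motif contains another. The windows cover 15 of the 21 members that fell and 5 of the 6 that rose; among called members with no entry were Kcnab3, Kcng1, Kcnk3, Kcns2, Kcna1 and Kcnb2. Of the 26 windows of members that fell 1 held TATAAA, and of the 8 windows of members that rose 1 held AP-1, and these are printed to show the match in its context, with the motif in capitals.
Kcnk2, AP-1, chr1:189344143-189344442, minus strand: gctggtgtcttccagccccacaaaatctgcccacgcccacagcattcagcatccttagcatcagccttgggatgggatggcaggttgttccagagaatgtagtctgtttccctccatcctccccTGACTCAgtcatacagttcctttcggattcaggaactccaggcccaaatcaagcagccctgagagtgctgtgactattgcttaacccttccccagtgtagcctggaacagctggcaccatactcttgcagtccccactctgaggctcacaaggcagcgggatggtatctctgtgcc
Kcnj16, TATAAA, chr11:111019335-111019634, plus strand: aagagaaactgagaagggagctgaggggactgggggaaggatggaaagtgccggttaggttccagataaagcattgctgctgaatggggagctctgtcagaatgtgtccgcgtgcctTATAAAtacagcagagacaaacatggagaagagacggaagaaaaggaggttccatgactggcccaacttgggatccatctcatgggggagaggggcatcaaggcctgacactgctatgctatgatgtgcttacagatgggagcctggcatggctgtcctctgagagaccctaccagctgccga
Each is 1 of 4 windows of its gene. A match is a description of letters in this window and not of a bound site.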

How the data were processed

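RNA was measured in 6 libraries from both bulbs of 3 mice, grouped by side, with the mouse number as replicate. Per the file headers the deposited table gives a read count per gene and library. These values are whole numbers and were taken as not normalized, which the headers do not state. The authors also deposited an RPKM per gene and library, per the file headers; it was not used, since for 72 of the 94 members the length column equals the span of the gene, introns included, to within 1 base. The genome build was GRCm38, and HTSeq 0.6.1p2, TopHat2, DESeq 1.18.0 and cutadapt 1.2.1 were named with their roles left unsaid, per the submitters' processing notes. Strand use in counting is not given in the sources used, so for the 5 members whose exons overlap another gene's, reads of the pair could not be told apart.

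Of 22095 genes 21852 matched a symbol. Genes were tested with edgeR 4.0.16 in R 4.3.3 (glmQLFit and glmQLFTest, TMM scaling, filterByExpr with a minimum count of 10), side as the only term, on 5 libraries without the one labelled left 1038, with Benjamini-Hochberg adjustment over all 14412 genes; the test is two-sided and calls were made at 0.05. The SE is the absolute log2 fold change divided by the square root of F. The fit was tested on simulated counts. Within-mouse ratios used TMM-scaled CPM and a pseudocount of 0.1 CPM. Both bulbs of a mouse come from 1 animal by the labels. Left and right deviations from the means of their sides correlated at 0.28 in the 4 libraries of mice 1037 and 1039. Fits with the mouse as a block were therefore among the 15 alternatives, as were DESeq2 1.42.0 and limma-voom 3.58.1. In all 6 libraries the correlations were 0.08, 0.05 and 0.13 for 1037, 1038 and 1039. There the left mean includes the library labelled left 1038, so they do not measure how alike the bulbs of a mouse were.

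The members, role groups, partner and marker lists and tests were chosen with earlier results of these data known. Named were the called members, the 10 others with the smallest p, the member with the highest level per kilobase in each role, the 6 furthest in each direction in the library labelled left 1038 (at least 5 CPM there or in the others' median), and called partners; further members were named after their values were seen. Some items that the rule names are not reported here, though they stay in the fits and counts. Of the other marker lists, 0 of 5 microglia, 0 of 5 oligodendrocyte and 0 of 5 vascular markers were called, 1 of 5 mitral and tufted cell markers (Tbx21) and Neurod1 of the granule cell list rose, and Sp8 of the interneuron list fell.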

Additional observations from a re-analysis of the deposited data

How the results depend on the processing

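RLE scaling, no filter and limma-voom kept all 27 calls, and a filter of 1 CPM in 2 libraries and DESeq2 kept 26 of the 26 calls with a value. With the replicate block edgeR kept all 27. DESeq2 with the replicate block called 14 members (10 lower) and 432 of all genes, and gave no adjusted p for 2 of the 27; beyond the calls named with the genes above, the block in 5 libraries changed no other call of a member named here. With all 6 libraries, with or without the block, 0 genes, 0 members, 0 lower, 0 higher and 0 partners were called by edgeR (1196 genes and 9 members at an unadjusted p under 0.05 without the block), and the members' median log2 fold change was -0.20 and -0.51 with the block. Scaling by total size gave a median of -0.027. Without 1 library at a time it ran from -0.22 to -0.12, the members called from 16 to 25, those lower from 11 to 19, those higher from 4 to 6, the partners from 1 to 4 and all genes from 660 to 1124. At these depths 16 members had too few counts to be tested.

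The sign turned in all 6 libraries without and with the block for Kcnk1 (0.75 and 0.35), Kcnk3 (1.178 and 0.37), Kcnip2 (-0.15 and -0.98), Kcna1 (0.32 and 0.14), Kcnc1 (0.52 and 0.27), Kcnh3 (-0.50 and -1.38), Kcnk10 (1.23 and 0.54) and Kcnc4 (1.54 and 0.81), without it for Kcng4 (1.10) and Kcnk9 (0.091), and with it for Kcnh6 (-0.26) and Kcng1 (-0.039). Each includes the library labelled left 1038. Of uncalled members the sign turned for Kcnv1 with total library size only (0.063) and without left 1037 (0.12), right 1037 (0.02) or right 1039 (0.0066), where leaving out 1 library gave -0.16 to 0.12. It turned without left 1037 for Kcnrg (-1.08 to 0.50) and Kcnc4 (-0.28 to 0.0068). The cause was not tested.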

Other observations

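At 4 loci where channel genes lie near each other, chosen after their values were seen, the log2 fold changes were as follows. On chromosome 6 Kcna5, Kcna1 and Kcna6 (126532551 to 126535412, 126640397 to 126646384 and 126708329 to 126740674 on GRCm38) had log2 fold changes of -0.23, -0.36 and 0.40, of which Kcna1 and Kcna6 were called with opposite signs; each of these calls was lost in 4 of the 5 fits that left out 1 library. On chromosome 3 Kcna3 and Kcna2 (107036169 to 107038070 and 107101146 to 107115005) had 0.21 and -0.55, with Kcna2 called. On chromosome 11 Kcnj16 and Kcnj2 (110968033 to 111027968 and 111066164 to 111076821) had -0.62 and -0.13, with Kcnj16 called. On chromosome 1 Kcnj9 and Kcnj10 (172320501 to 172329318 and 172341210 to 172374085) had 0.18 and -0.50, with Kcnj10 called. The difference between neighbours was not tested.

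Summed over all 94 members, the channel genes held 5173 and 5241 CPM in left 1037 and 1039 and 5765, 5746 and 5642 CPM in right 1037, 1038 and 1039. Most of that gap lay in the voltage-gated pores, at 1742 and 1691 CPM on the left and 1965 to 2103 CPM on the right, and in the inward rectifiers, at 756 and 746 CPM against 904 to 967 CPM. The Kcnq members summed higher on the left, at 683 and 708 CPM against 575 to 635 CPM. In the library labelled left 1038 the 8 ion-activated members summed to 1045 CPM, against 381 to 414 CPM in the other 5, and the 8 Kcnh members to 94.9 CPM against 443 to 476 CPM.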
